A study of Mus musculus with 32 samples.

Results

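The genes examined here encode the proteins of the small ribosomal subunit. They were taken by name from the deposited count table: every row whose symbol was Rps followed by a number, together with Rpsa and Fau, and without pseudogene rows marked -ps and without the S6 kinase genes. This rule gave 39 genes of 23958 rows. The label holds for most of them. Rps19bp1 is an exception, since it encodes a protein that binds a subunit protein and is not itself part of the ribosome. Rps12l1, Rps3a2 and Rps3a3 are further exceptions, annotated as processed pseudogenes although their symbols lack -ps. The RNA came from the frontal cortex (infralimbic and prelimbic areas) of 32 mice that had received gut microbiota from 1 of 3 primate species. The donor species were humans (12 mice, 4 in batch A and 8 in batch B), squirrel monkeys (8 mice, 4 in batch C and 4 in batch D) and macaques (12 mice, 5 in batch E and 7 in batch F). The labels give the tissue, the donor and the batch letter; the sources used here do not give strain, genotype, age or sex of the mice, the number of donors, or what a batch letter stands for. The series' design text counts its expressed genes without ribosomal genes, so these rows are in the table but outside that count. No group without microbiota was analysed here, and each comparison asks whether cortical levels differ with the species of the donor. Every batch held 1 donor species only, so donor species and batch cannot be told apart in a comparison of donors. The same holds for the position on the library plate, since per the library names human-donor libraries stood in plate columns 1 and 2, squirrel-monkey-donor libraries in column 3 and macaque-donor libraries in columns 4 and 5.

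The ribosome's small subunit binds the messenger RNA and reads its codons against transfer RNAs, while the large subunit joins the amino acids. Its proteins sit on a folded ribosomal RNA with a head, a body and a platform, and cells make them in near equal numbers, mostly from messages that begin with a C and a run of pyrimidines. That start, the terminal oligopyrimidine or TOP motif, places their translation under the control of mTORC1, a kinase complex that responds to nutrients and growth factors. In neurons, local protein synthesis at synapses draws on these ribosomes. The mouse genome also holds many processed pseudogenes of ribosomal protein genes, which are copies of the spliced message and can be nearly identical to it.

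Libraries were made by TagSeq, a method that reads near the 3′ end of polyadenylated RNA, here as single reads of 100 bases. Library totals ran from 1035036 to 2089308 counts with a median of 1534710.5. The 39 genes together took 0.956% of all counts. Levels are given as CPM, a gene's counts relative to its library's total, after TMM scaling, which adjusts for differences in composition between libraries. As a tag library reads near the end of each molecule, the CPM were not divided by gene length. Of the 39 genes, 36 passed the filter on low counts and were tested among 12651 genes. Rps12l1, Rps3a2 and Rps3a3, annotated processed pseudogenes related to Rps12 and Rps3a1, did not, with mean levels of 0.423, 0.696 and 1.20 CPM. Changes were tested with edgeR's quasi-likelihood test, with Benjamini-Hochberg adjustment over all 12651 genes and a threshold of 0.05. The p-values measure the spread between mice of these batches. Markers of neurons, astrocytes, oligodendrocytes, microglia and endothelium were all above 0 in every donor group, as in any brain tissue; this does not tell one region from another, and the labelled region was not checked further.

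The start sequences are shown because of the TOP motif described above. RefSeq promoter entries (build GRCm38.p6) were found for 27 of the 39 genes, and 8 of these had a C followed by 4 letters that were each C or T exactly at the annotated first base, against 3.01% of 27025 genes. On the opposite strand the same letters at that place were found in 0 of the 27, against 4.07% of genes. In the lines that follow, 15 bases before and 15 bases from the start are printed in gene orientation and the run of pyrimidines from the first base is in capitals.
Rps6, chr4:86857353-86857382, strand -: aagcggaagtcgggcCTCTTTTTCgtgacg
Rps10, chr17:27635230-27635259, strand -: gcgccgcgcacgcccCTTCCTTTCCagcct
Rps21, chr2:180257364-180257393, strand +: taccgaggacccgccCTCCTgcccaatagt
Fau, chr19:6057932-6057961, strand +: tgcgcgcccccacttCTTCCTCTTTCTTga
Rps18, chr17:33955651-33955680, strand -: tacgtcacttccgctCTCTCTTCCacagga
Rps15a, chr7:118116133-118116162, strand -: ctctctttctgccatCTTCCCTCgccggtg
Rps27 and Rps27rt also had the motif at the first base. A match to these letters is a description of the annotated start, and an annotated start that is a few bases off would miss it; allowing 5 bases either side, 14 of 27 genes matched against 21.16% of all genes.

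The coding ends are shown because processed pseudogenes copy them, and a read of 100 bases that falls in a shared stretch cannot tell a gene from its copy. For each gene the last 300 coding bases were compared with all other GENCODE M21 transcripts (build GRCm38), and each window of 100 bases was called shared when it occurred without any difference in a transcript of another gene. The comparison ended at the stop codon. Tag reads may lie beyond it, in the 3′ untranslated region, which was not compared and has 519, 3170 and 1062 bases in the annotated Rps16, Rps20 and Rps3 transcripts used. All windows were shared in 12 of the tested genes, some in 17 and none in 7. In a comparison of the last 100 coding bases with the closest copy that aligned without gaps, possible for 30 genes, 20 were identical to that copy and 10 differed at up to 4 positions. The 3 pairs that follow show Rps16 (all windows shared), Rps20 (83.1% of windows shared) and Rps3 (none shared), each with a processed pseudogene, and differing bases are in capitals.
Rps16: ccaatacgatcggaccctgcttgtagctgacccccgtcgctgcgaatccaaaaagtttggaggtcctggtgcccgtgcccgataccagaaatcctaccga
Gm8623: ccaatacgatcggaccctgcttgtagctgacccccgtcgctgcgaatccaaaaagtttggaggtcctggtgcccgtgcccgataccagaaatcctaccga
Rps20: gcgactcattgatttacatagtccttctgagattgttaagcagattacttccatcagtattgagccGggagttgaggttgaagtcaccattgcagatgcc
Gm4332: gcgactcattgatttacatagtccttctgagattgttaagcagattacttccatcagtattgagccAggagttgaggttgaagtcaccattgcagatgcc
Rps3: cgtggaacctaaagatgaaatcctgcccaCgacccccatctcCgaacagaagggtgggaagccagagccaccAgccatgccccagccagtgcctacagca
Gm14513: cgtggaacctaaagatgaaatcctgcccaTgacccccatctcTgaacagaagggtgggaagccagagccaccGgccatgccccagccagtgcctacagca
The Rps16 stretch lies on the plus strand at chr7:28352537-28352636 and its copy Gm8623 on chromosome 8, the Rps20 stretch on the minus strand at chr4:3834504-3834603 and its copy Gm4332 on chromosome 3, and the Rps3 stretch on the minus strand at chr7:99479280-99479379 and its copy Gm14513 on chromosome X. All 3 stretches lie within a single coding exon. The sources used here do not say how the authors treated reads that match more than 1 gene. The counts themselves were made on GRCm39, per the submitters' processing notes, so these coordinates describe the sequences and not the counting.

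The 39 genes spanned a wide range of levels. Rps14, a platform protein, was the highest, with a mean of 861 CPM over all mice. Rps21, also of the platform, and Rps24, of the body, followed with 818 and 774 CPM. Among genes that passed the filter, Rps27rt (8.19 CPM), Rps23 (18.3 CPM) and Rps4l (21.96 CPM) were lowest. Subunit proteins are needed in near equal numbers, yet the levels of Rps14 and Rps23 differed widely in this table. Rps23, whose protein lines the decoding centre, had between 9 and 63 counts in a mouse, and Rps14 between 930 and 1670, so single mice are far less precise for the former.

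**Figure D1:**
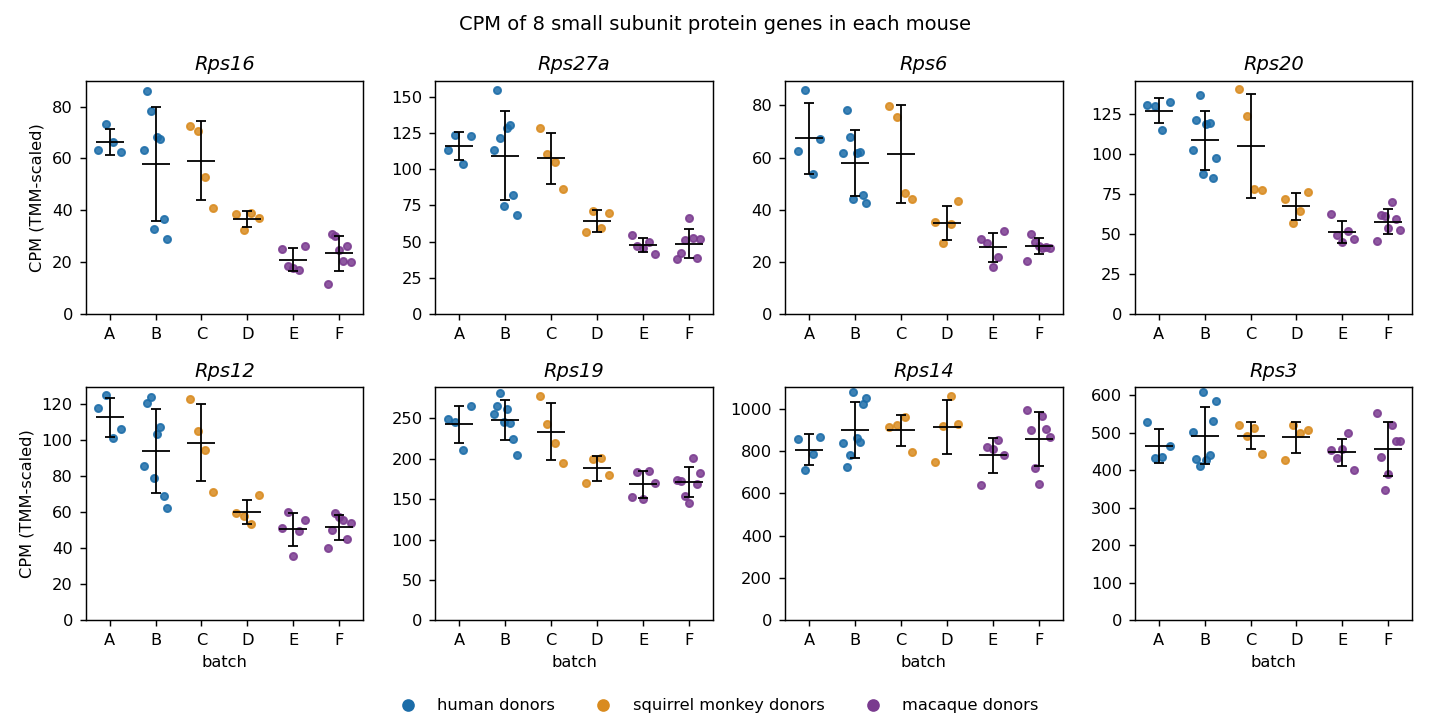
CPM (TMM-scaled) of 8 small subunit protein genes in each mouse, by batch; points are mice, coloured by donor, and bars give the batch mean with its SD. Rps16, Rps27a, Rps6, Rps20, Rps12 and Rps19 sit lowest in the macaque batches E and F, while Rps14 and Rps3 overlap across all 6 batches.

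Compared with mice given macaque microbiota, mice given human microbiota had higher counts for 17 of the 36 tested genes (47.2%), and none was called lower; over all 12651 genes tested, 4.47% were called higher and 3.54% lower. The median log2 fold change of the 36 genes was 0.20, beside a median of -0.001 over all genes. The fold change was positive in 31 and negative in 5. By place in the subunit, 7 of 14 head proteins, 7 of 13 body proteins and 3 of 5 platform proteins were called, and 0 of the 4 tested paralogs or partners that are no standard part of the subunit. The changes spanned the whole range between a small shift and more than a doubling, and the largest were in genes of low to middle level. In a bulk tissue, more cells of a type and more RNA per cell cannot be told apart.

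Among head proteins, Rps16 changed most. Its protein reaches towards the transfer RNA in the P site. In human-donor mice the lowest, median and highest levels were 28.9, 64.9 and 86.2 CPM, and in macaque-donor mice 11.7, 22.5 and 30.8 CPM. Most human-donor mice lay far above all macaque-donor mice, and the overlap came from 1 human-donor mouse at 28.9 CPM. The fold was 2.68, a log2 fold change of 1.42 ± 0.17 (SE, 12 against 12 mice, edgeR adjusted p = 2.52e-07). Rps27a, made as a fusion of ubiquitin with a head protein, had 68.5, 117 and 155 CPM in human-donor mice and 38.0, 48.1 and 66.2 CPM in macaque-donor mice. Here the donor groups did not overlap, and the log2 fold change was 1.21 ± 0.13 (edgeR adjusted p = 4.91e-08). Rps20, which contacts the messenger RNA entry side of the head, was also separate in the 2 groups, at 85.4, 119 and 137 CPM against 45.1, 53.1 and 70.1 CPM. Its log2 fold change was 1.06 ± 0.11 (edgeR adjusted p = 4.91e-08).

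Rps12, a protein of the beak of the head, ran from 62.2 to 124 CPM with a median of 105 CPM in human-donor mice and from 35.8 to 59.9 CPM with a median of 52.5 CPM in macaque-donor mice. All human-donor mice were higher, and the log2 fold change was 0.97 ± 0.12 (edgeR adjusted p = 9.02e-07). Rps19, the gene most often mutated in Diamond-Blackfan anaemia, was 246 ± 23.0 CPM (SD, n = 12) with human and 170 ± 16.7 CPM (SD, n = 12) with macaque donors. Its human-donor mice all lay above 204 CPM and its macaque-donor mice all below 202 CPM, and the log2 fold change was 0.54 ± 0.07 (edgeR adjusted p = 7.05e-07). Rps10, which is ubiquitinated on stalled ribosomes, had 50.3, 74.0 and 113 CPM against 36.4, 42.8 and 54.6 CPM. The Rps10 groups overlapped at the edge, with a log2 fold change of 0.78 ± 0.12 (edgeR adjusted p = 1.61e-05). Rps28, at the messenger RNA exit, rose by 0.46 on the log2 scale (edgeR adjusted p = 1.34e-04).

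Of the body proteins, Rps6, the substrate for which the S6 kinases are named, had 42.7, 62.0 and 85.9 CPM in human-donor mice and 17.9, 25.8 and 32.0 CPM in macaque-donor mice. The groups did not overlap, and the log2 fold change was 1.24 ± 0.14 (edgeR adjusted p = 1.32e-07). Rps23 ran from 11.4 to 31.9 CPM (median 23.9) against 6.42 to 17.1 CPM (median 11.03). The groups overlapped in 2 human-donor mice, and its log2 fold change was 1.06 ± 0.16 (edgeR adjusted p = 2.5e-05). Rps13, a protein of the body that binds the ribosomal RNA early in assembly, ran from 54.7 to 99.4 CPM (median 79.95) against 33.1 to 56.3 CPM (median 43.4). A single human-donor mouse fell inside the macaque Rps13 range, and the log2 fold change was 0.85 ± 0.11 (edgeR adjusted p = 6.9e-07). Rps9, which lies at the messenger RNA entry, ran from 242 to 293 CPM (median 272) against 166 to 225 CPM (median 199.8). The Rps9 groups were separate although the fold was only 1.37, a log2 fold change of 0.45 ± 0.06 (edgeR adjusted p = 8.53e-07).

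Platform proteins gave 2 further clear differences. Rpsa, also known as a laminin receptor, ran from 124 to 269 CPM (median 206) with human donors and from 87.9 to 126 CPM (median 109) with macaque donors; 1 human-donor level fell inside the macaque range. The Rpsa log2 fold change was 0.91 ± 0.10 (edgeR adjusted p = 9.63e-08). Rps26, which touches the messenger RNA upstream of its start codon, ran from 112 to 144 CPM (median 128) against 64.2 to 99.1 CPM (median 77.1). These groups were separate, with a log2 fold change of 0.68 ± 0.09 (edgeR adjusted p = 7.05e-07). In all, 7 genes had every human-donor mouse above every macaque-donor mouse (Rps12, Rps19, Rps20, Rps26, Rps27a, Rps6 and Rps9), 19.4% of the 36, beside 0.15% of all genes tested.

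The other 4 called genes moved less. Fau, which encodes a ubiquitin-like protein joined to a body protein, had a log2 fold change of 0.22 ± 0.05. Rps21, Rps24 and Rps7 had log2 fold changes of 0.21, 0.21 and 0.27. The Rps7 adjusted p of 0.0354 (edgeR) rose above 0.05 in 10 of the 32 fits that each left out 1 mouse. It was also lost with counts summed per batch, where n is the 6 batches, with the library total as a covariate, with no filter, and without batch A, B or F. Fau, Rps21 and Rps24 were not called without batch B or with counts summed per batch. Fau was also lost without batch E, Rps21 without batch F, and Rps24 without either of them. Rps28 was not called without batch F. The 12 genes of smallest p (Rps27a, Rps20, Rpsa, Rps6, Rps16, Rps13, Rps19, Rps26, Rps9, Rps12, Rps10 and Rps23) kept their call under each of the 15 other settings tried and without any single mouse.

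The 19 tested genes that were not called lay between -0.10 and 0.41 on the log2 scale. Rps14, the most abundant, had 710 to 1078 CPM in human-donor mice and 639 to 995 CPM in macaque-donor mice, and its log2 fold change was 0.08 ± 0.07. Rps3, at the messenger RNA entry, had a log2 fold change of 0.09 ± 0.07. Rps2, the lowest at -0.10 ± 0.07, was called lower without batch B (log2 fold change -0.27, edgeR adjusted p = 0.0346). The standard errors of Rps14 and Rps3 (0.07 each) were close to that of Rps9 (0.06).

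**Figure D2:**
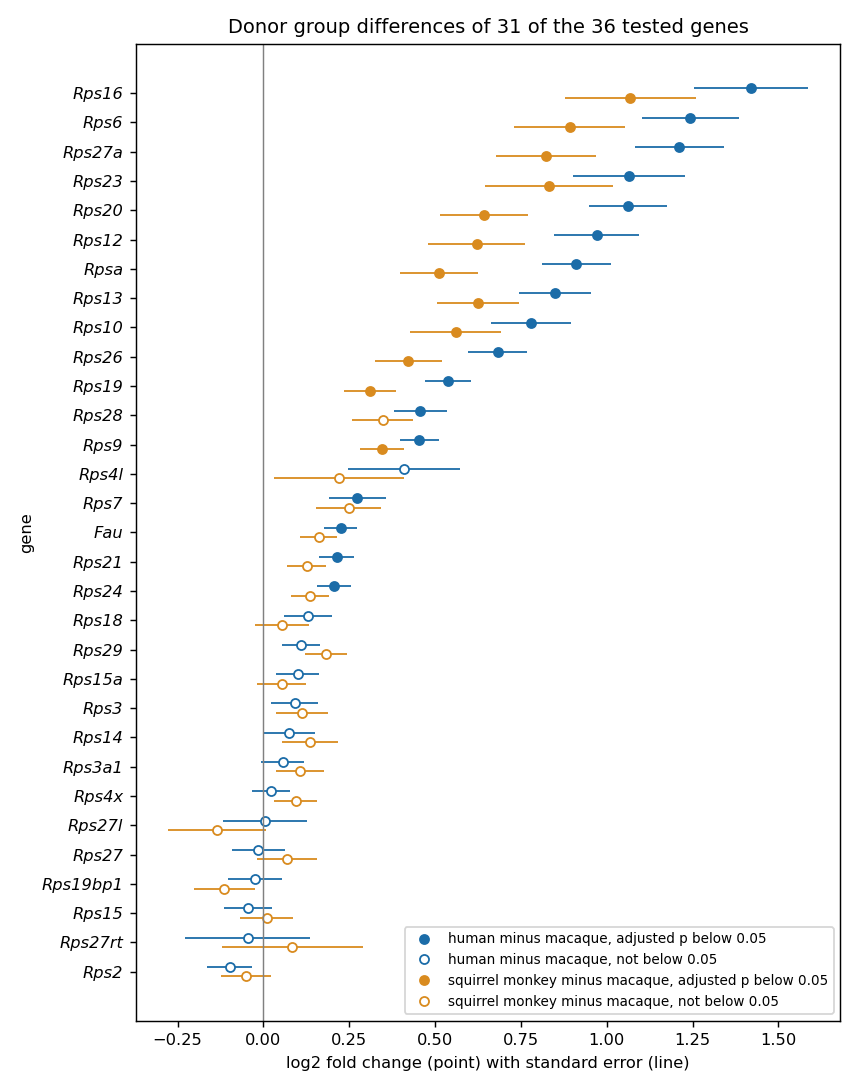
log2 fold change with its standard error of 31 of the 36 tested genes, human minus macaque (blue) and squirrel monkey minus macaque (orange), ordered by the former; filled points have an adjusted p below 0.05 (edgeR). Rps16 is at the top with 1.42 and 1.07, and the lower part of the plot gathers around 0.

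Squirrel monkey microbiota gave the same direction against macaque microbiota. There 12 of the 36 genes were called higher (33.3%) and none lower, beside 0.387% called higher and 0.253% lower among all genes. All 12 were among the 17 called with human donors (100% of the 12 and 70.59% of the 17), and since both comparisons use the same macaque-donor mice they are given side by side and not as separate evidence. Rps16 levels were 32.3, 39.9 and 72.6 CPM with squirrel monkey donors. Every one of these 8 mice was above every macaque-donor mouse (30.8 CPM at most), the only gene of the 36 with that property, beside 0.0237% of all genes. The Rps16 log2 fold change was 1.07 ± 0.19 (edgeR adjusted p = 0.00315).

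Rps27a had 56.6, 78.8 and 129 CPM with squirrel monkey donors and a log2 fold change of 0.82 ± 0.15 (edgeR adjusted p = 0.00315). Rps6 had 27.2, 43.6 and 79.9 CPM and a log2 fold change of 0.89 ± 0.16 (edgeR adjusted p = 0.00315). Both overlapped with the top of the macaque-donor range. Rps9 (0.34 ± 0.06), Rps13 (0.63 ± 0.12) and Rps20 (0.64 ± 0.13) had edgeR adjusted p of 0.0045, 0.00571 and 0.00884. Rps23, Rps12, Rpsa, Rps10, Rps26 and Rps19 made up the rest, with log2 fold changes between 0.31 and 0.83. Rps28 had a log2 fold change of 0.35 and was on the threshold, with an adjusted p of 0.0504 by edgeR, 0.0207 by DESeq2 and 0.0324 by limma voom; it was also called with RLE scaling, with library totals alone and with scaling without ribosomal genes. Fau was called by limma voom (adjusted p = 0.0398).

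These calls depended on few mice. Without batch C none of the 12 genes was called, and their log2 fold changes ran from 0.15 to 0.70. Without batch E or without batch F none was called either, though the log2 fold changes stayed between 0.30 and 1.17. The loss was not particular to these genes. Over all genes, edgeR called 81 of 12651 with every batch and 2 of 13118 without batch C. It called 10 of 12672 without batch E and 0 of 12880 without batch F. Without squirrel monkey replicate 1, or without replicate 2, both of batch C, 6 genes were called, and without replicate 3, of batch C too, 9 were. Rps10, Rps12, Rps19, Rps23, Rps26 and Rpsa were the genes that lost their call in such fits. With counts summed per batch, Rps12, Rps19, Rps23 and Rps26 were not called and the other 8 were.

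Between human and squirrel monkey donors, edgeR called 0 of the 36 genes, beside 0.134% of all genes. At an unadjusted p under 0.05, 8 were higher with human donors (22.2%), beside 5.24% of all genes. With limma voom 2 were called (Rps20 and Rpsa), beside 80 of 12651 genes, and with DESeq2 0, beside 57. Rps20 differed most, with a mean of 115 ± 17.7 CPM (SD, n = 12) in human-donor and 86.3 ± 29.7 CPM (SD, n = 8) in squirrel-monkey-donor mice. The Rps20 groups overlapped, and the log2 fold change was 0.42 ± 0.12 (edgeR adjusted p = 0.162). Without batch C, 7 genes were called higher with human donors (Rps12, Rps19, Rps20, Rps26, Rps27a, Rps6 and Rpsa). Over all genes, that fit called 63 of 13118, 42 of them higher. In a test for any difference among the 3 donor species, 16 of the 36 genes were called, beside 6.15% of all genes.

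Batches of the same donor species were compared to see how far the genes moved with no change of donor species. Whether such batches shared donor individuals is not given. Squirrel monkey batches C and D differed most. Rps27a had 129, 111, 105 and 86.1 CPM in the 4 mice of batch C and 56.6, 71.4, 59.5 and 69.5 CPM in the 4 of batch D. All mice of batch C were above all of batch D for this gene, and the log2 fold change was 0.74 ± 0.19 (edgeR adjusted p = 0.401). Rps6 had 79.9, 75.5, 46.5 and 44.0 CPM in batch C and 35.3, 27.2, 34.4 and 43.2 CPM in batch D. Rps16 had 72.6, 70.5, 52.8 and 40.8 CPM in batch C and 38.6, 32.3, 38.99 and 37.1 CPM in batch D. For both genes replicates 1 and 2 stood high within batch C, and every mouse of batch C was still above every mouse of batch D. The share of all genes that separate 4 mice from 4 in this way was not counted, so these separations cannot be weighed.

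Over the family, edgeR called 0 genes between batches C and D, as did DESeq2 and limma voom, and none of all 12651 genes was called by edgeR. At an unadjusted p under 0.05, 14 of the 36 genes differed (38.9%), beside 6.98% of all genes. Both batches shared 1 column of the library plate, per the library names. Between human batches A and B, 0 genes were called, beside 0.0237% of all genes, and 3 of 36 (Rps15, Rps2 and Rps28) were under an unadjusted p of 0.05, beside 11.6%; DESeq2 and limma voom called 0. Between macaque batches E and F, 0 were called and 0 were under an unadjusted p of 0.05, beside 3.15% of all genes; DESeq2 and limma voom again called 0.

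Within batch B, 3 mice stood low for many of the called genes. Human-donor replicates 8, 11 and 12 had 32.7, 36.6 and 28.9 CPM of Rps16, while the other 5 mice of the batch had 63.5 to 86.2 CPM. For Rps27a they had 74.8, 82.4 and 68.5 CPM, and the other 5 mice 113 to 155 CPM. In 9 of the 17 genes called against macaque donors (Rps10, Rps12, Rps13, Rps16, Rps20, Rps23, Rps27a, Rps6 and Rps7) these 3 were the lowest of the 12 human-donor mice. They lay above the macaque-donor median in all 17 genes. As these genes were selected for being higher in human-donor mice, this is no separate evidence. For the whole family the same 3 mice were the highest of the human-donor mice, with 1.09, 1.06 and 1.06% of all counts, and so they were in the summed level of the 7 tested genes with no shared window, at 3290, 3045 and 3208 CPM.

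Human against macaque donors and batch C against batch D are 2 comparisons with no mouse in common. Of the 14 genes under an unadjusted p of 0.05 between batches C and D, 11 (78.6%) were among the 17 called between human and macaque donors (64.7% of the 17), and 3 were not, Rps27l and Rps29 among them. Across the 36 genes, Pearson's r between the 2 sets of log2 fold changes was 0.866 and Spearman's rho 0.707; within each comparison the genes share libraries and scaling, so they are not independent points. Batches A and B, and E and F, are themselves part of human against macaque donors, so no correlation with those batch comparisons is given. Rps6, Rps23, Rps27a, Rps12, Rps16 and Rps20 had log2 fold changes between 0.63 and 0.80 from batch D to C. Those of Rps14 and Rps3 were -0.02 and 0.01.

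**Figure D3:**
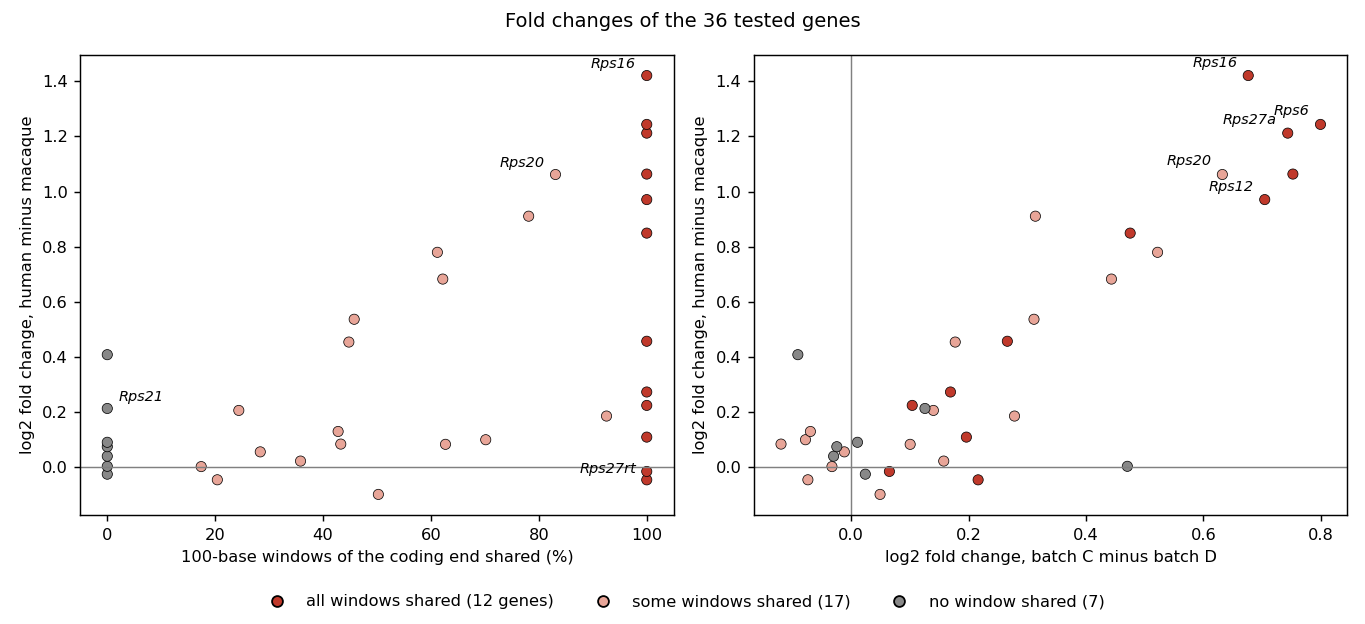
log2 fold change, human minus macaque, of the 36 tested genes against the percent of 100-base windows of the coding end shared with another gene (left) and against the log2 fold change of batch C minus batch D (right); colour gives the window class. Rps16, Rps6 and Rps27a are high on all 3 measures, and genes with no shared window lie at or below 0.41.

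The classes of shared coding ends held unequal numbers of called genes. Of the 12 genes with all windows shared, 9 were called between human and macaque donors (median log2 fold change 0.65); Rps27, Rps27rt and Rps29 were not. Of the 17 with some windows shared, 7 were called (median 0.13). Of the 7 with none, 1 was called, Rps21 (median 0.08). Across the 36 genes, the log2 fold change and the percent of shared windows had r = 0.537 and rho = 0.503. The percent of shared windows was itself related to the level (r = -0.483 with mean CPM), and so was the log2 fold change (r = -0.487), so the 3 measures move together. For squirrel monkey against macaque donors, 6 of the 12, 6 of the 17 and 0 of the 7 were called. The Rps16 and Rps3 sequences printed above are examples of the first and last class.

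The rows of the copies themselves were nearly empty. The 216 rows of near-identical copies outside the family summed to 86.0 ± 9.69 CPM (SD, n = 12) with human, 91.2 ± 6.88 CPM (SD, n = 8) with squirrel monkey and 86.2 ± 9.31 CPM (SD, n = 12) with macaque donors. The 3 copy rows of Rps16 summed to 0.472 ± 0.305 CPM with human and 0.479 ± 0.474 CPM with macaque donors (SD, n = 12 each), while Rps16 itself had means of 60.6 and 22.4 CPM. Only 1 of the 216 rows passed the filter, Rps19-ps3, with a log2 fold change of -0.07 (edgeR adjusted p = 0.826). Among all genes tested, 20.8% of those with 5 or more copies were called between human and macaque donors. The share was 10.8% with 1 to 4 copies and 7.51% with no copy. Once ribosomal protein rows were set aside, the shares were 8.16%, 9.52% and 7.51% in the same order. There, 9 were called higher and 3 lower of 147 genes, 72 and 32 of 1093, and 437 and 413 of 11316. Whether the counting of shared reads had a part in the differences was not tested. Strand use in the counting is not given either, and 11 of the 39 genes overlap a gene on the opposite strand, among them 3 of the 17 called (Rps10, Rps27a and Rps28), so that reads of such partners cannot be set apart.

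**Figure D4:**
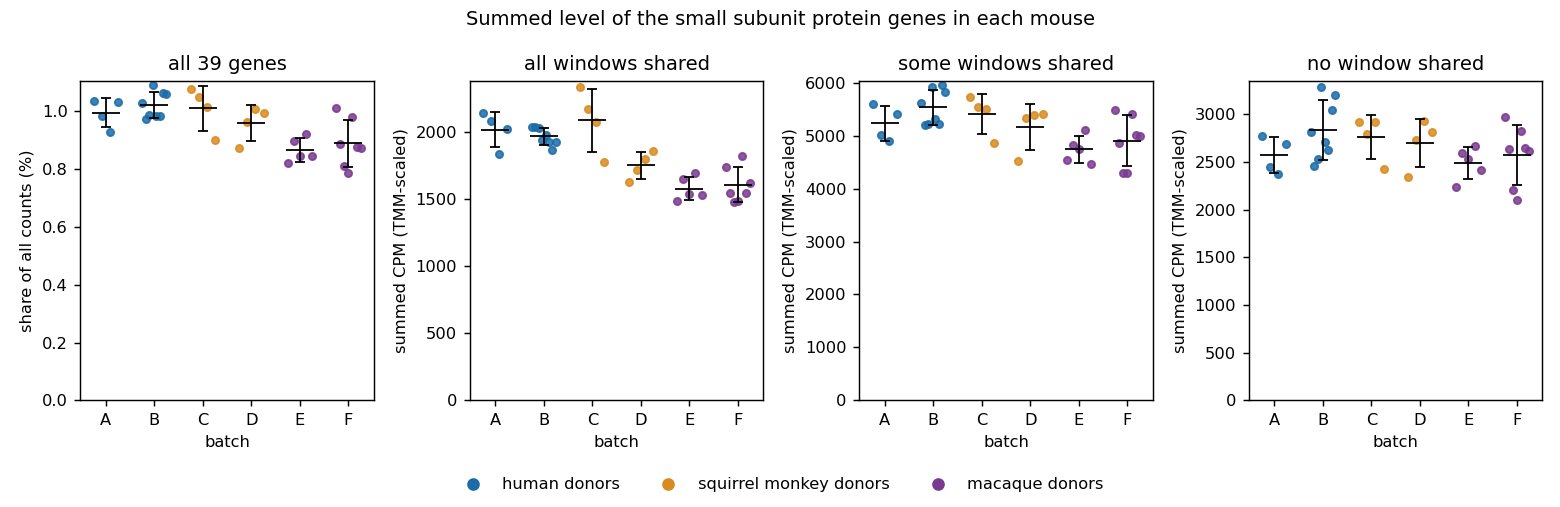
Share of all counts taken by the 39 genes (left, percent) and summed CPM of the tested genes in each window class (right 3 panels), for each mouse by batch; points are mice and bars give the batch mean with its SD. Macaque batches E and F have the lowest means in all 4 panels; in the class with no shared window the batches overlap, and the means of F (2571 CPM) and A (2573 CPM) nearly meet.

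Summed over the 39 genes, the family took 1.01 ± 0.046% of counts (SD, n = 12) with human donors, 0.986 ± 0.070% (n = 8) with squirrel monkey donors and 0.880 ± 0.067% (n = 12) with macaque donors. The ranges were 0.930 to 1.09%, 0.872 to 1.08% and 0.787 to 1.01%, so the groups overlapped. In the class with all windows shared, summed levels were 1835 to 2141 CPM with human donors and 1481 to 1825 CPM with macaque donors, which did not overlap; this class holds most of the called genes. In the class with no shared window the ranges were 2377 to 3290 CPM and 2102 to 2970 CPM. No test is given for these sums, since the genes were chosen as a family with results known.

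The paralogs Rps27l, Rps27rt and Rps4l were not called between human and macaque donors. Rps27 was 219.8 ± 36.04 CPM with human and 222 ± 30.3 CPM with macaque donors (SD, n = 12 each), a log2 fold change of -0.01 ± 0.08. Rps27rt, a retrogene nearly identical to it, was at 7.90 and 8.17 CPM in the same groups, and Rps27l, the p53-responsive paralog, at 32.0 and 32.0 CPM. None of the 3 was called in any donor comparison; reads of Rps27 and Rps27rt cannot be told apart over their coding ends. Rps4x, on the X chromosome, had a log2 fold change of 0.02 ± 0.06. Its autosomal paralog Rps4l had a median of 23.8 CPM with human and 17.3 CPM with macaque donors, with overlapping ranges and a log2 fold change of 0.41 ± 0.16 that did not pass (edgeR adjusted p = 0.113). Rps19bp1, which binds the Rps19 protein, was at 40.7 ± 4.62 and 41.3 ± 3.99 CPM (SD, n = 12 each), with a log2 fold change of -0.02 ± 0.08.

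Called genes were found with and without the TOP motif at the annotated first base. Of the 8 genes with the motif at the first base, 4 were called between human and macaque donors (Fau, Rps10, Rps21 and Rps6), with a median log2 fold change of 0.17. Of the 19 genes with a promoter entry and no motif at that base, 11 were called, with a median of 0.27. Over all genes tested, 4.47% were called higher. With 5 bases allowed either side, Rps2, Rps23, Rps24, Rps26, Rps27l and Rps9 of these 19 matched too. The class of 19 is therefore not one without a TOP start. Outside the ribosome, 5 of 24 other genes with TOP messages were called higher and none lower by edgeR (5 and 1 by limma voom), among them Eef2 (log2 fold change 0.43 ± 0.05), the translocation factor, and Eef1g (0.43 ± 0.07). Fbl, Eif3k and Eif3h were the other 3, and Fbl is counted again among the assembly factors below. Eef1a1 (-0.12 ± 0.05) and Tpt1 (0.15 ± 0.07) were not called. The median of the 24 was 0.02.

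The large subunit gave a like picture, with 29 of 50 tested protein genes called higher with human than with macaque donors and none lower by edgeR (30 and 1 by limma voom), beside 4.47% and 3.54% of all genes, and a median log2 fold change of 0.27; Rpl28 (1.20 ± 0.12), Rplp1 (0.58 ± 0.06), Rpl19 (1.10 ± 0.12) and Rpl3 (1.29 ± 0.15) had the smallest p. With squirrel monkey donors 11 of the 50 were higher. Factors that assemble the small subunit mostly did not pass: 2 of 55 were called higher, Fbl, the methyltransferase of small nucleolar particles (1.14 ± 0.16, edgeR adjusted p = 4.99e-06), and Tbl3 of the processome (0.31 ± 0.09), and the median was 0.03. Of 19 dedicated partners, such as chaperones and modifying enzymes of single subunit proteins, 0 were called by edgeR. This list includes Rps19bp1, which is also among the genes examined here. Only Rnf10 was under an unadjusted p of 0.05 (0.32 ± 0.11, edgeR adjusted p = 0.0558). DESeq2 and limma voom each called 1 of the 19 higher. Of 36 genes of mTORC1 and S6 kinase signalling, Lamtor2 of the Ragulator was higher (0.55 ± 0.11) and the GTPase gene Rragd lower (-0.34 ± 0.10). Over all genes, 8.01% were called in either direction, and whether these lists differ from that share was not tested.

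Some markers of other cells moved with the donors. Oligodendrocyte markers, summed over 7 genes, ran from 724 to 9777 CPM with human, 821 to 5043 CPM with squirrel monkey and 631 to 3454 CPM with macaque donors. The ranges overlapped widely, with medians of 1241, 1870 and 943 CPM. Between human and macaque donors all 7 were under an unadjusted p of 0.05 (median log2 fold change 1.28), and edgeR called 2 of them higher (Cldn11 and Mog), DESeq2 1 and limma voom 0. With library totals alone edgeR called 3 of the 7 higher, and with the library total as a covariate 5. Between squirrel monkey and macaque donors 5 of the 7 were under an unadjusted p of 0.05 (median 1.004) and edgeR called 0. Markers of meninges and fibroblasts (6 genes) had summed medians of 576, 767 and 418 CPM with human, squirrel monkey and macaque donors, and edgeR called 1 of the 6, Igf2, higher in each comparison with macaque donors (median log2 fold changes 0.49 and 0.47). The tested blood markers, 4 haemoglobin genes, had median log2 fold changes of 0.44 for human and 0.76 for squirrel monkey against macaque donors; edgeR called 0 in either comparison, and 1 and 4 of the 4 were under an unadjusted p of 0.05. Microglial markers (7 genes) had summed medians of 374, 365 and 388 CPM in the same donor order, and 0 of 7 were called between human and macaque donors by edgeR (2 at an unadjusted p under 0.05) or by DESeq2, and 1, lower, by limma voom. Of 9 neuron markers, edgeR called 1 higher and 1 lower between human and macaque donors (median log2 fold change -0.07). At an unadjusted p under 0.05 there were 4. Astrocyte markers had 0 of 7 called (median 0.15) and oligodendrocyte precursor markers 0 of 3 (median -0.02). For endothelium, 1 of 5 was called higher (median -0.007). Over all genes tested, 4.47% were called higher and 3.54% lower. No marker gene was at 0 in any group. The part of cell composition in the differences of the small subunit genes was not tested.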

How the data were processed

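Frontal cortex RNA of 32 mice was read by TagSeq. The authors deposited 1 table of raw counts per Ensembl gene (23958 rows); the build GRCm39 is named in the submitters' processing notes, and the sources used here name no aligner, counter, strand setting or treatment of multiply matching reads. Of 35 columns, 3 matched no sample and were not used. Rows with no symbol (76, 0.031% of counts) stayed in the totals. Donor group and batch came from the labels.

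Genes were kept by filterByExpr (minimum count 10, minimum total 15), scaled by TMM (factors 0.955 to 1.04), and tested with edgeR 4.0.16 in R 4.3.3 (quasi-likelihood, donor or batch as the only factor, all 32 mice); the common biological coefficient of variation was 0.138. The script was tested on simulated data. Alternatives were DESeq2 1.42.0, limma 3.58.1 voom with sample weights, other scalings, filters, the library total as a covariate, counts summed per batch, and leaving out each batch or mouse. Copies were found with blastn 2.17.0 (at least 100 bases and 95% identity) in GENCODE M21. Sums, shares and correlations over the family are descriptions.

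The members and lists were chosen with earlier results of these data known. Named in full were up to 12 genes of smallest p for human against macaque, up to 6 for squirrel monkey against macaque, any gene called in another comparison, the 3 highest and 3 lowest levels, the paralogs, Rps19bp1, and up to 4 genes of each other list. Values of some single members are not reported here; counts, medians and sums include them.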

Additional observations from a re-analysis of the deposited data

Results flagged for a closer look

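Each of the 36 tested genes in the squirrel monkey group (8 mice), and the summed level of the family in each of the 6 batches, was checked for a single mouse far from the others. Of these 42 checks 2 gave such a mouse, where chance alone gives about 1 in 20. The lowest Rps24 level was 642.8 CPM in replicate 5 of batch D, while the other mice ran from 779 to 854 CPM. The lowest Rps27rt level was 2.699 CPM in replicate 8 of batch D, while the other mice ran from 7.12 to 10.2 CPM. Neither gene was called in a comparison with squirrel monkey donors.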

How the results depend on the processing

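Each of the 15 other settings kept the number of genes called between human and macaque donors within 1.5 times of 17, and no called gene changed sign under any setting. The median log2 fold change of that comparison was 0.12 without batch B. Between squirrel monkey and macaque donors, 0 of the 36 genes were called without batch C, E or F, beside 2, 10 and 0 of all genes. Between human and squirrel monkey donors, limma voom called 2 of the 36 genes, beside 80 of all genes. Without batch C, 7 of the 36 were called, beside 63 of all genes. The median log2 fold change between human and squirrel monkey donors was 0.00 without batch B and 0.0029 without batch D. Without Rps19bp1 and the 2 genes of highest count, the family took 0.835%, 0.811% and 0.721% of counts with human, squirrel monkey and macaque donors. The cause of these shifts was not tested, except that leaving out a batch leaves fewer mice. Leaving out 1 mouse at a time gave 16 to 17 genes for human against macaque (median log2 fold change 0.18 to 0.22), 6 to 13 for squirrel monkey against macaque (0.12 to 0.17), 0 to 2 for human against squirrel monkey (0.05 to 0.09), 16 to 17 for any donor, and 0 to 0 between batches. No paired analysis was possible, since each mouse had 1 donor species and 1 batch and the labels link no mouse to another. The labels give no replicate numbers. Those used here only name mice, in the order the samples are listed within a donor group, and pair none. Depth limits Rps23 and Rps27rt most, which had as few as 9 and 4 counts in a mouse.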
